A study of Mus musculus with 6 samples.

Results

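The IFIT family (interferon-induced proteins with tetratricopeptide repeats) was described here by 5 genes, Ifit1, Ifit2, Ifit3, Ifit3b and Ifit1bl1. They were taken by symbol from the 22105 rows of the deposited table that carry an Ensembl identifier, and each symbol matched 1 row. Ifit3 and Ifit3b are near-identical copies, so their sum is given beside the single values. The RNA came from the mouse macrophage line RAW264.7, which was transformed by Abelson murine leukemia virus. For 24 h the cells of 3 libraries were exposed to CM-PEG-PLGA@DOX/R848 nanoparticles, in an amount that corresponds to 2 µg/mL of DOX, and those of the other 3 libraries to phosphate buffered saline (PBS). The particles hold the DNA-damaging drug doxorubicin (DOX) and resiquimod (R848), a Tlr7 agonist, in a polymer carrier of PLGA and PEG, with a component CM that the labels leave unexplained. No library received a single component, so DOX, R848 and the carrier cannot be told apart. Whether replicates were separate cultures is not stated, and p-values therefore cover only the spread between these libraries, which may be technical.

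IFIT proteins are among the most strongly interferon-induced products of mammalian cells. Type I interferon activates the transcription factor complex ISGF3, which binds interferon-stimulated response elements (ISREs) in the promoters of its target genes. IRF3 and IRF7 can act on the same elements. Ifit1 protein binds RNA whose 5′ cap lacks 2′-O methylation, a mark that host mRNA carries, and blocks its translation. Human IFIT3 stabilises IFIT1 and strengthens its hold on RNA, and IFIT1 and IFIT2 also bind the translation initiation factor eIF3.

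The genes stand together on mouse chromosome 19, in 99.3 kb from 34550694 to 34650009 (GRCm38, GENCODE M21), all annotated as protein-coding. In order they are Ifit2 (ENSMUSG00000045932, 34550694 to 34576419, plus strand), Ifit3 (ENSMUSG00000074896, 34583531 to 34588731, plus), Ifit1bl1 (ENSMUSG00000079339, 34592891 to 34601956, minus), Ifit3b (ENSMUSG00000062488, 34607970 to 34613401, plus) and Ifit1 (ENSMUSG00000034459, 34640871 to 34650009, plus). A related gene outside the 5, Ifit1bl2 (ENSMUSG00000067297, 34617049 to 34640743, minus), lies between Ifit3b and Ifit1. None of the 5 overlaps another annotated gene.

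Promoter stretches that hold ISRE core matches are shown because the members moved together. They are RefSeq sequence of GRCm38.p6, each printed 5′ to 3′ on the strand of its gene. Capitals mark matches to the ISRE core, GAAANNGAAA, which was searched on both strands and reads TTTCNNTTTC on the other. The Ifit1 stretch (chr19:34640744-34640870, plus strand) is all of the 127 bases between the GENCODE starts of Ifit1 and Ifit1bl2, which point away from each other. The other stretches end just before a RefSeq start of their gene, at chr19:34583329-34583528 (Ifit3, plus), chr19:34607757-34607956 (Ifit3b, plus) and chr19:34601969-34602098 (Ifit1bl1, minus).
Ifit1: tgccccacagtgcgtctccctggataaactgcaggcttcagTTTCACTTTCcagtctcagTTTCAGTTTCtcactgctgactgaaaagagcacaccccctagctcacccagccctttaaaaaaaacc
Ifit3: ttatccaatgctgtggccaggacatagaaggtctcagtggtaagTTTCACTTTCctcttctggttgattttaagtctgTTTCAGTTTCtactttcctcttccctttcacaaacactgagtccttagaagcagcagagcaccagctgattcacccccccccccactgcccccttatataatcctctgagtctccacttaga
Ifit3b: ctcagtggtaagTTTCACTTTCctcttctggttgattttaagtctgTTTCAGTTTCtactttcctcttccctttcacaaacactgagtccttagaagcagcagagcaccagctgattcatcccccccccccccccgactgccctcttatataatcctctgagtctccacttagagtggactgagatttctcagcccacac
Ifit1bl1: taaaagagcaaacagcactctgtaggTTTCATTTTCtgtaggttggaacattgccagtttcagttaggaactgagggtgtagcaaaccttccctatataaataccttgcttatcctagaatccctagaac

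All 5 members had RefSeq promoter windows, which run from 250 bases before to 50 bases after a start. Ifit1, Ifit3 and Ifit3b each held 2 core matches. Ifit1bl1 held 1 in each of its 2 windows. The windows of Ifit2, also 2 in number, held no match, which says only that these letters are not in those windows. Of all 32851 mouse windows, 3.44% held at least 1 core match and 0.225% at least 2. The extended form GAAANNGAAACT, which contains the core, matched at both Ifit1 sites and at 1 site each in Ifit3 and Ifit3b, and stood in 0.271% of all windows. The windows of Ifit3 and Ifit3b were identical at 99.2% of 260 aligned bases, so their matches are copies of the same sites. The windows of Ifit1 and Ifit1bl2 share 245 bases, and the same 2 matches lie in both.

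**Figure D1:**
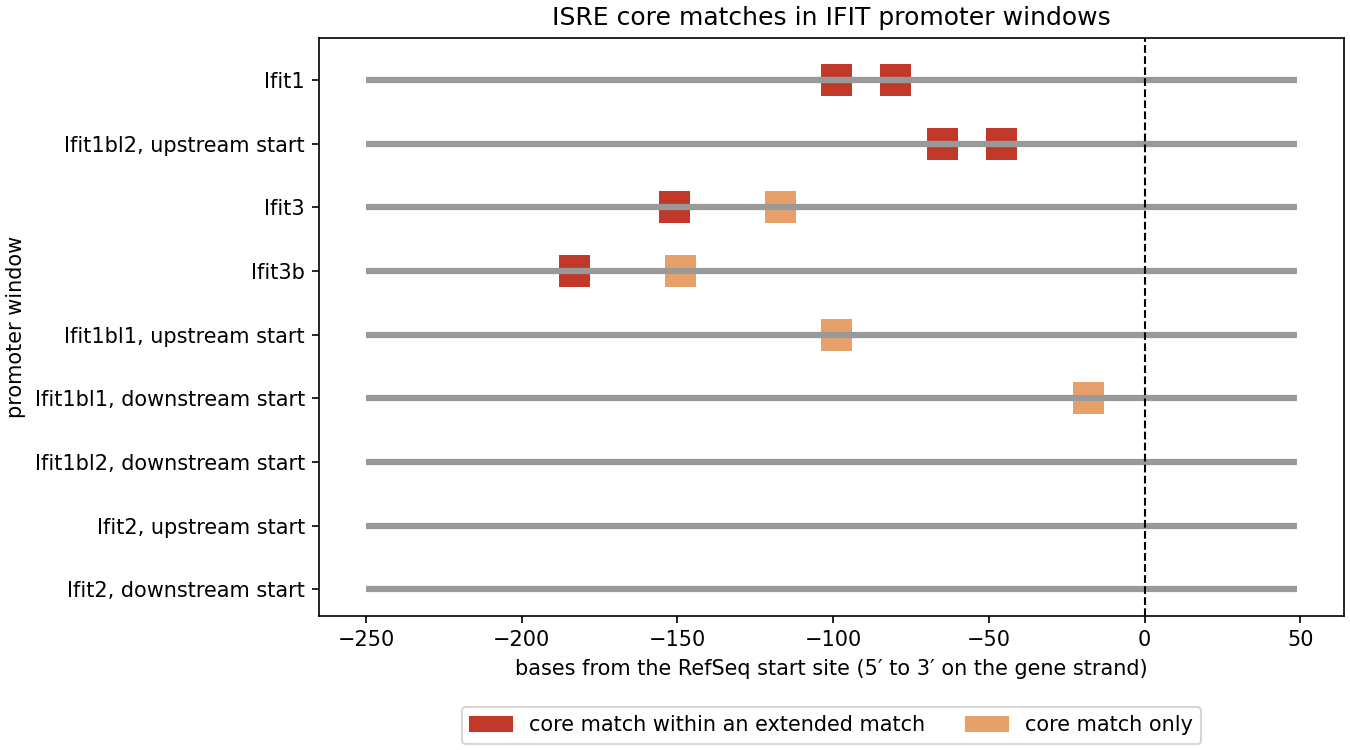
Positions of ISRE core matches (boxes) in each RefSeq promoter window (grey lines), with the distance from the start site in bases on the x axis and the windows down the page. Ifit1, Ifit3, Ifit3b and the upstream window of Ifit1bl2 hold 2 matches each, and both Ifit2 windows hold none.

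All 5 members were higher in nanoparticle libraries, by 8.7-fold for Ifit2 and by far more for the other four, as ratios of mean FPKM. FPKM counts fragments relative to transcript length and library size, so members can be compared with one another, within a limit given below for Ifit3 and Ifit3b. Each member passed limma's test at a Benjamini-Hochberg adjusted p under 0.05, run on the log2(FPKM + 1) scale over the 10229 genes whose mean reached 1 FPKM. Of all genes tested 77.2% passed in either direction, 42.7% as higher and 34.5% as lower. The direction of the members was therefore common in this comparison and their size was not, since 2.83% of genes were called with a log2 fold change of at least 2. Ifit3b, Ifit3, Ifit1, Ifit1bl1 and Ifit2 ranked 5, 7, 22, 50 and 112 among the 10229 by log2 fold change. The median log2 fold change was 4.52 over the 5 members and 0.08 over all genes tested. Ifit1, Ifit2 and Ifit3 would have met the expression filter in PBS libraries alone. Ifit3b and Ifit1bl1 met it only through the nanoparticle libraries. Without the filter both were called higher (limma adjusted p = 4.1e-07 for Ifit3b and 6.0e-07 for Ifit1bl1). That refit uses the same values and gives the same log2 fold changes, so it is no separate support. In bulk RNA, a larger share of cells expressing a gene and more RNA per cell cannot be told apart.

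**Figure D2:**
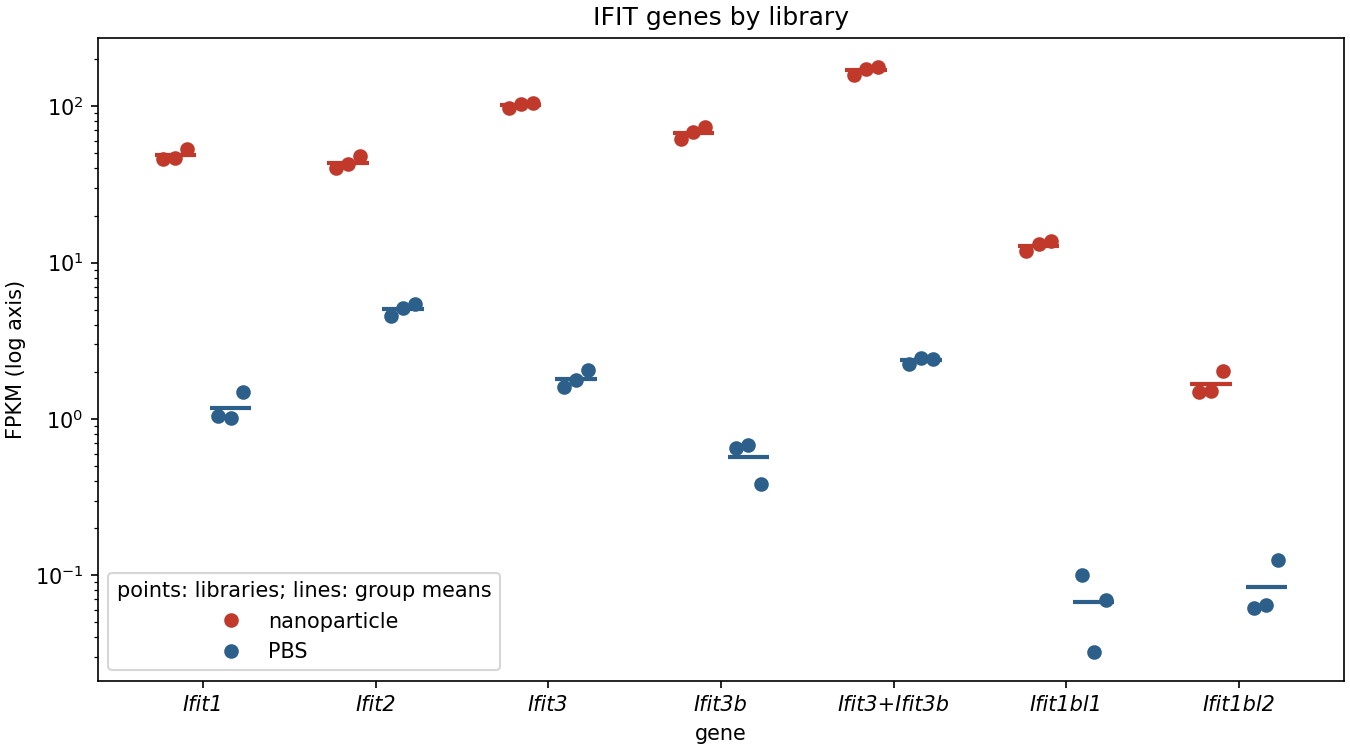
FPKM of each IFIT gene on a log axis, with 1 point per library and lines at group means; nanoparticle libraries are in red to the left of PBS libraries in blue. No gene has overlapping groups, and Ifit2 has the highest PBS values, 4.52 to 5.45 FPKM.

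Ifit1, the cap-sensing member, was at 46.0, 46.6 and 53.6 FPKM in nanoparticle libraries, against 1.05, 1.01 and 1.48 FPKM in PBS libraries. The groups did not overlap, which was so for 78.8% of all genes tested. Its mean was 48.7 ± 4.21 FPKM in nanoparticle libraries and 1.18 ± 0.263 FPKM in PBS libraries (SD, n = 3 each), which is 4.52 ± 0.10 as a log2 fold change (SE; adjusted p = 3.3e-10 by limma). The ratio of the means was 41.3.

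Ifit2, which binds AU-rich RNA in its human form, was at 40.2, 42.9 and 47.7 FPKM in nanoparticle libraries, against 4.52, 5.10 and 5.45 FPKM in PBS libraries. Every nanoparticle library stood above every PBS library. This member had the highest level of the 5 in PBS libraries and the smallest change, 2.89 ± 0.08 on the log2 scale (SE; adjusted p = 2.0e-09 by limma).

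Ifit3, whose human form stabilises IFIT1, was the most abundant single member after treatment. It was at 97.0, 104 and 105 FPKM in nanoparticle libraries, against 1.60, 1.79 and 2.04 FPKM in PBS libraries. The log2 fold change was 5.20 ± 0.07 (SE, limma adjusted p = 3.2e-11). Ifit3b, its copy, was at 61.8, 68.2 and 73.5 FPKM in nanoparticle libraries, against 0.653, 0.682 and 0.383 FPKM in PBS libraries. Its log2 fold change was 5.45 ± 0.10 (SE; adjusted p = 9.6e-11 by limma). Neither gene had overlapping groups.

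The coding sequences of Ifit3 and Ifit3b are both 1209 bases long and identical at 1198 of them, or 99.1%. Of all 100-base windows of the Ifit3 transcript, 31.7% occur unchanged in the Ifit3b transcript, and 27.4% of Ifit3b windows occur in Ifit3. The sources used here do not say how, or whether, fragments that fit both copies were counted. The split between the pair is therefore uncertain. If such fragments were left out, the sum and the pair's share and ratios built on it are too low. The shares of the other members are then too high. If such fragments were counted for both copies, the opposite holds. Summed, the pair was at 159, 172 and 178 FPKM in nanoparticle libraries, against 2.26, 2.47 and 2.43 FPKM in PBS libraries. With the sum in place of the single rows, the log2 fold change was 5.66 ± 0.06 (SE, limma adjusted p = 1.7e-11). As listed, Ifit3b stood at 0.637, 0.656 and 0.701 of the level of Ifit3 in nanoparticle libraries, against 0.407, 0.381 and 0.187 in PBS libraries.

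Ifit1bl1, an Ifit1-like gene, was the least abundant member in both groups. It was at 11.8, 13.1 and 13.7 FPKM in nanoparticle libraries, against 0.101, 0.0325 and 0.0694 FPKM in PBS libraries. These PBS values are close to 0, so a ratio of means rests on very few fragments. Its log2 fold change was 3.70 ± 0.08 (SE, limma adjusted p = 3.8e-10). Ifit1bl2 had a mean under 1 FPKM and was not tested. It was at 1.48, 1.504 and 2.03 FPKM in nanoparticle libraries, against 0.0616, 0.0647 and 0.126 FPKM in PBS libraries. Ifit1bl2 shares its promoter stretch with Ifit1. Its mean was 1.67 ± 0.309 FPKM in nanoparticle libraries, where Ifit1 had 48.7 ± 4.21 FPKM. In PBS libraries Ifit1bl2 averaged 0.0841 ± 0.0363 FPKM and Ifit1 1.18 ± 0.263 FPKM (SD, n = 3 each).

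Outside the Ifit3 pair, coding identity over aligned bases ran from 62.0% for Ifit1 and Ifit2 to 88.3% for Ifit1bl1 and Ifit1bl2. Ifit1 was 78.0% identical to Ifit1bl1 and 78.1% to Ifit1bl2. No 100-base window of Ifit1 or Ifit2 occurs in any other member, and 3.29% of Ifit1 windows occur in Ifit1bl2.

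Fold changes depend on the constant added before the logarithm, because PBS values were low. With 0.1 in place of 1, log2 fold changes were 5.27 for Ifit1, 3.09 for Ifit2, 5.74 for Ifit3, 6.69 for Ifit3b and 6.29 for Ifit1bl1. With 10 they were 2.39, 1.83, 3.24, 2.88 and 1.18 in the same order of genes. Ifit1bl1 therefore ranked second among the members with 0.1 and last with 10. All were called higher under each constant.

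The mix of IFIT transcripts differed between the groups. Summed over the 5 members, expression was 257, 275 and 293 FPKM in nanoparticle libraries, against 7.93, 8.61 and 9.43 FPKM in PBS libraries. Ifit2 made up 15.8% ± 0.377 of that sum in nanoparticle libraries and 58.0% ± 1.13 in PBS libraries (SD, n = 3 each). The pair Ifit3 and Ifit3b made up 61.8% ± 0.933 in nanoparticle libraries and 27.6% ± 1.63 in PBS libraries. Ifit1 made up 17.7% ± 0.672 in nanoparticle libraries and 13.6% ± 2.03 in PBS libraries, and Ifit1bl1 4.67% ± 0.0812 and 0.795% ± 0.449, again with nanoparticle libraries first. None of these shares had overlapping groups, and in FPKM the groups did not overlap for 78.8% of all genes tested. The shares are parts of the same sum and follow from the unequal changes given above, so they are not separate results.

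**Figure D3:**
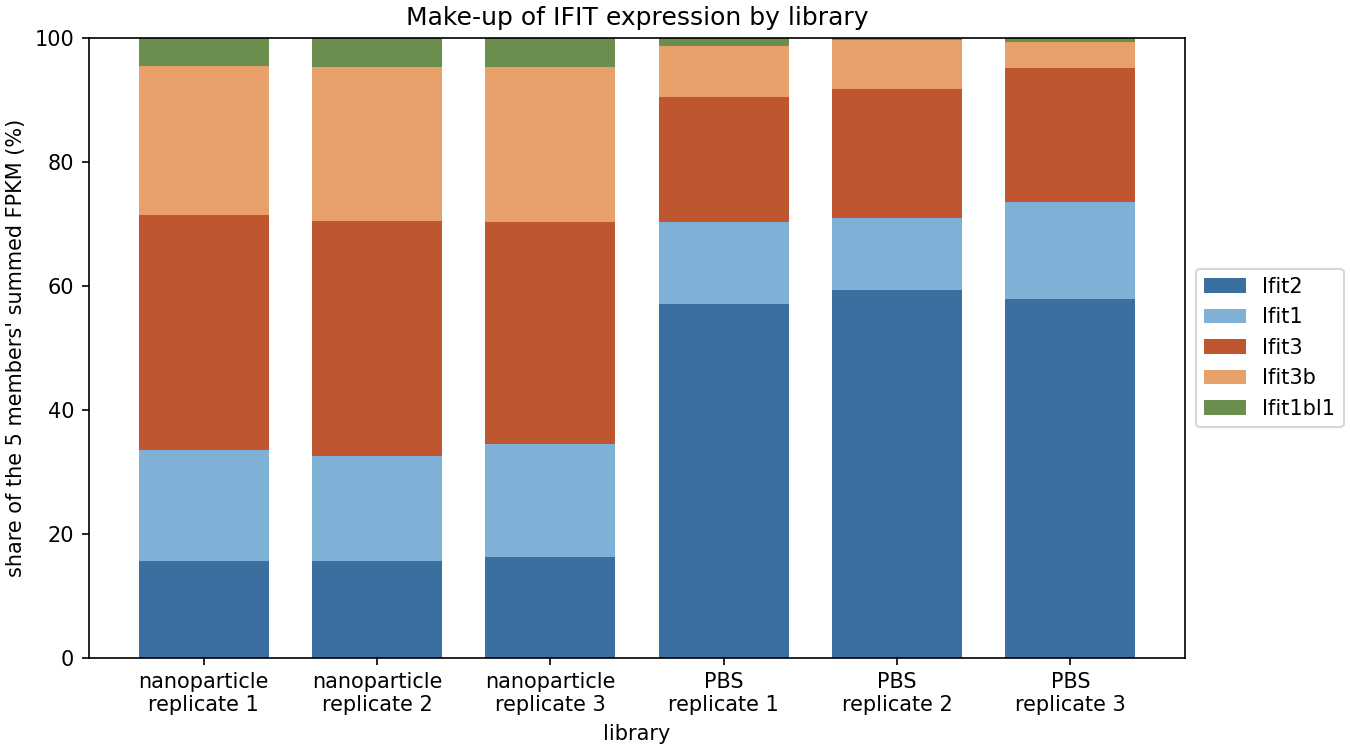
Share of the summed FPKM of the 5 members taken by each member, in percent, with 1 bar per library. Ifit2 takes 15.6% to 16.3% in the 3 nanoparticle libraries and 57.0% to 59.3% in the 3 PBS libraries.

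The level of Ifit2 was 0.873, 0.919 and 0.891 times that of Ifit1 in nanoparticle libraries, against 4.30, 5.06 and 3.68 times in PBS libraries. On the log2(FPKM + 1) scale the Ifit2 to Ifit1 ratio was lower in nanoparticle libraries by a difference of -1.63, and the difference was -0.56 with a constant of 10 and -2.18 with 0.1. For the Ifit3 pair relative to Ifit1 the difference was 1.14 (nanoparticle minus PBS). For Ifit3b relative to Ifit3 it was 0.26 with a constant of 1, 0.94 with 0.1 and -0.37 with 10, and 0.11 without PBS replicate 3. For Ifit1bl1 relative to Ifit1 it was -0.82 with 1, 1.02 with 0.1 and -1.21 with 10. These last pairs were not among the planned comparisons and have no direction that holds under every constant. With a constant of 1, in each of these 4 comparisons the groups did not overlap, and a two-sided exact permutation test gave p = 0.1, the smallest that 3 against 3 libraries allow, also after adjustment over the 4. The design cannot reach the threshold of 0.05 in this test.

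Relative to the mean, replicates lay closer together in the nanoparticle group than in the PBS group for each member. The coefficient of variation of the members ran from 4.26% (Ifit3) to 8.80% (Ifit2) in nanoparticle libraries and from 9.34% (Ifit2) to 50.6% (Ifit1bl1) in PBS libraries, where most levels were low. All 5 members were highest in nanoparticle replicate 3 and lowest in nanoparticle replicate 1 among the nanoparticle libraries. In PBS libraries 3 of the 5 were highest in replicate 3. Without any 1 library, log2 fold changes stayed within 4.45 to 4.61 for Ifit1, 2.82 to 2.94 for Ifit2, 5.14 to 5.26 for Ifit3, 5.36 to 5.52 for Ifit3b and 3.66 to 3.75 for Ifit1bl1.

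Genes next to the cluster moved both ways. Of the 5 nearest protein-coding genes on each side, 7 were tested, with a median log2 fold change of -0.40. Of these 2 were higher, 4 lower and 1 not called, where 42.7% of all genes tested were higher and 34.5% lower. On the Ifit1 side, Slc16a12, a creatine transporter gene whose end lies 18.4 kb away, was at 0.665, 0.702 and 0.650 FPKM in nanoparticle libraries, against 2.97, 3.56 and 3.62 FPKM in PBS libraries. This gene fell (log2 fold change -1.39 ± 0.09 SE; adjusted p = 3.7e-07 by limma). Beyond it Pank1, a pantothenate kinase of coenzyme A synthesis, and Kif20b, a mitotic kinesin, fell as well (log2 fold changes -1.22 and -0.40). Slc16a12 and Pank1 met the expression filter only through the PBS libraries. Rpp30, a ribonuclease P subunit 1434 kb away, was slightly higher (0.21). The Rpp30 call was lost under upper quartile and median-ratio scaling and without PBS replicate 3.

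On the Ifit2 side, Lipa, the lysosomal acid lipase 23.2 kb away, fell to 89.2 ± 3.97 FPKM in nanoparticle libraries, against 125.6 ± 2.14 FPKM in PBS libraries. The next gene, Ch25h, an enzyme that makes 25-hydroxycholesterol and is itself known as interferon-induced, was listed at 0 FPKM in all 6 libraries. Fas, the death receptor gene 223 kb away, was at 12.8, 10.6 and 12.2 FPKM in nanoparticle libraries. In PBS libraries Fas was at 0.0636, 0.149 and 0 FPKM (limma adjusted p = 1.1e-09). Fas met the expression filter only through the nanoparticle libraries. Acta2, smooth muscle actin, was not tested, at 0.852, 1.47 and 1.32 FPKM in nanoparticle libraries and 0.236, 0.221 and 0.124 FPKM in PBS libraries. Stambpl1, a deubiquitinase, was at 22.8 ± 1.13 FPKM in nanoparticle libraries and 22.4 ± 1.27 FPKM in PBS libraries and was not called (log2 fold change 0.02 ± 0.07 SE). Htr7, a serotonin receptor gene on the far side, was at or under 0.0277 FPKM in every library.

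**Figure D4:**
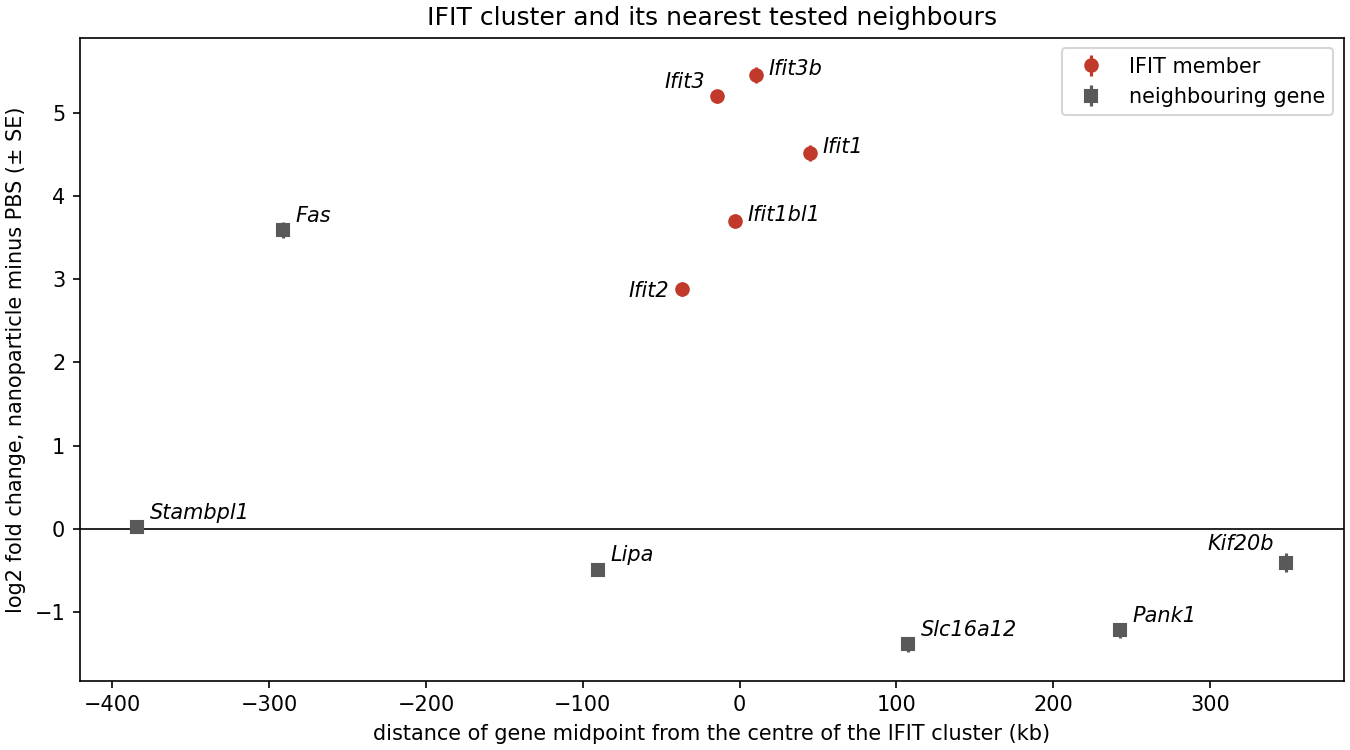
Log2 fold change (nanoparticle minus PBS, with SE) against distance of each gene's midpoint from the centre of the IFIT cluster in kb, for the tested members and the tested neighbours within 500 kb. Members lie between 2.89 and 5.45, and of the neighbours Fas alone lies above 1.

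Most genes of the factors that act on ISREs were higher. Of 10 genes of ISGF3 and the IRF family, 9 were tested, 7 of them higher and 2 lower, with a median log2 fold change of 0.53. Of all genes tested 42.7% were called higher and 34.5% lower. Irf7 was at 1113, 1042 and 987 FPKM in nanoparticle libraries, against 54.1, 53.3 and 50.0 FPKM in PBS libraries. Its log2 fold change was 4.29 ± 0.06 (SE, limma adjusted p = 3.2e-11). Stat2 averaged 56.7 ± 3.17 FPKM in nanoparticle libraries and 6.76 ± 0.536 FPKM in PBS libraries. Irf9, the DNA-binding subunit of ISGF3 from the IRF family, rose less, with 33.4 ± 1.03 FPKM in nanoparticle libraries and 22.8 ± 0.491 FPKM in PBS libraries. Irf3 rose by a log2 fold change of 0.30, a call lost under upper quartile scaling. Irf2, which can repress ISRE-driven genes, fell to 12.8 ± 0.687 FPKM in nanoparticle libraries, against 18.3 ± 1.43 FPKM in PBS libraries.

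Genes that sense nucleic acids or carry the interferon signal moved both ways. Of 25 listed, 22 were tested, 15 higher, 6 lower and 1 not called (median log2 fold change 0.68). Among all genes tested, 42.7% were called higher and 34.5% lower. The replicate block called all 22. Without nanoparticle replicate 2 or 3, or without PBS replicate 1 or 2, only 4 were lower, because Mavs and Unc93b1 lost their calls. Ifnb1, the interferon beta gene, was at 3.62, 4.45 and 3.74 FPKM in nanoparticle libraries and listed at 0 in every PBS library. Ifnb1 therefore met the expression filter only through the nanoparticle libraries. Zbp1, a sensor of Z-form nucleic acid, averaged 76.4 ± 2.19 FPKM in nanoparticle libraries and 3.50 ± 0.267 FPKM in PBS libraries. Sting1, the adaptor of cytosolic DNA sensing, averaged 67.4 ± 3.92 and 18.0 ± 0.535 FPKM, and Rigi, a sensor of viral RNA, 63.5 ± 5.68 and 15.2 ± 0.526 FPKM, nanoparticle libraries first. Tlr7, a receptor of R848, fell to 13.7 ± 1.16 FPKM in nanoparticle libraries, against 27.6 ± 1.93 FPKM in PBS libraries. The receptor chain Ifnar1 and the kinase Jak1 were slightly higher (log2 fold changes 0.27 and 0.31), both not called under upper quartile scaling, and Ifnar2 and Tyk2 slightly lower (-0.31 and -0.45).

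Genes listed under interferon feedback were 5 higher, 1 lower and 2 not called among 8 tested of 10 (median log2 fold change 0.34). Whether each of them limits interferon signalling in these cells was not tested. The shares over all genes tested were 42.7% higher and 34.5% lower. With the replicate block all 8 were called. Isg15, a ubiquitin-like modifier, averaged 628 ± 39.9 FPKM in nanoparticle libraries and 18.0 ± 2.04 FPKM in PBS libraries. Usp18, which removes Isg15 from proteins and blocks the interferon receptor, averaged 295.8 ± 12.5 and 30.7 ± 1.38 FPKM in the same order. Ptpn6, the phosphatase SHP-1, fell to 75.6 ± 1.60 FPKM in nanoparticle libraries, against 177.6 ± 3.45 FPKM in PBS libraries.

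Genes of mRNA cap formation and removal, which bear on the RNA that Ifit1 recognises, moved both ways. All 11 were tested, and 6 were higher, 3 lower and 2 not called (median log2 fold change 0.23), with 10 called under the replicate block. These counts lie near the shares over all genes tested, 42.7% higher and 34.5% lower. Cmtr1, which adds the 2′-O methyl group that keeps Ifit1 off host mRNA, averaged 32.6 ± 0.510 FPKM in nanoparticle libraries and 23.7 ± 0.401 FPKM in PBS libraries (log2 fold change 0.44 ± 0.05 SE, limma adjusted p = 3.2e-05). Its relative Cmtr2, on the same list, went the other way (log2 fold change -0.26, limma adjusted p = 0.012). Dxo, which removes incomplete caps, and Ncbp1, a subunit of the nuclear cap-binding complex, rose by log2 fold changes of 0.97 and 0.59. Pcif1, which methylates the adenosine next to the cap, fell to 5.04 ± 0.481 FPKM in nanoparticle libraries, against 12.2 ± 0.531 FPKM in PBS libraries.

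Of 13 genes of eIF3, the initiation factor that IFIT proteins bind, 12 were found under the listed symbol and tested. Of these 3 were higher, 8 lower and 1 not called, with a median log2 fold change of -0.17. Over all genes tested, 42.7% were higher and 34.5% lower. Eif3c averaged 203.8 ± 12.6 FPKM in nanoparticle libraries and 132 ± 4.57 FPKM in PBS libraries. Eif3l and Eif3f fell by log2 fold changes of -0.40 and -0.49.

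**Figure D5:**
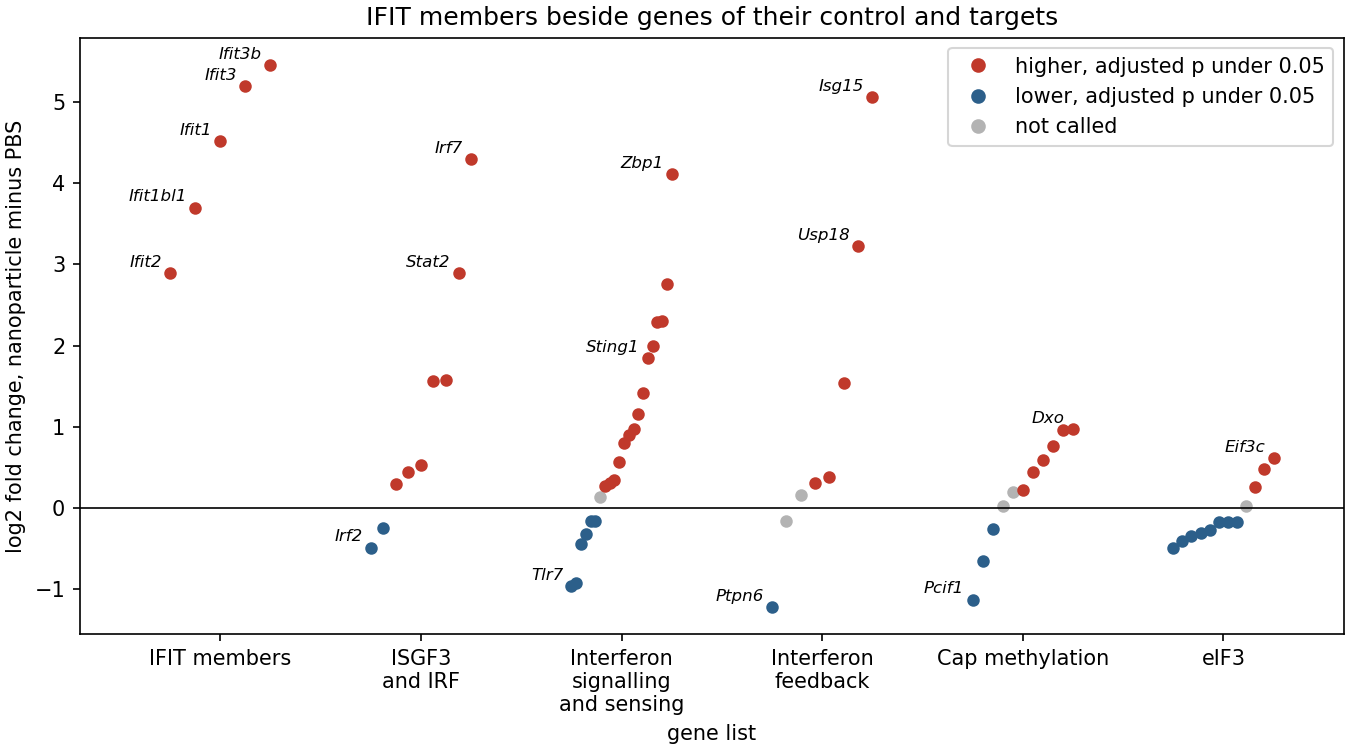
Log2 fold change (nanoparticle minus PBS) of each tested gene in 6 lists, coloured by call at an adjusted p of 0.05. IFIT members lie between 2.89 and 5.45, and cap and eIF3 genes lie between -1.13 and 0.97.

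Outside the family, the profiles over 6 libraries closest to that of the summed family were those of Tnfrsf9, Il6 and Cxcl10. Closeness was the root-mean-square distance between centred log2(FPKM + 1) values, 0.111, 0.112 and 0.120, and it mostly reflects how far apart the groups lie. Tnfrsf9, a costimulatory receptor gene, had a log2 fold change of 4.76, the cytokine Il6 one of 4.90 and the chemokine Cxcl10 one of 4.92. Il6, with a mean of 0.174 FPKM in PBS libraries, met the expression filter only through the nanoparticle libraries.

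Library depth is unknown. FPKM summed to 451056 to 469220 in nanoparticle libraries and to 457161 to 468500 in PBS libraries, with 15723 to 15989 and 12678 to 12872 genes above 0. All 8 macrophage markers examined exceeded 1 FPKM in every library, and their sum was 1237 to 1304 FPKM in nanoparticle libraries and 2760 to 2852 FPKM in PBS libraries. Single values of these markers ran from 1.61 to 1540 FPKM. The sum therefore mostly reflects the most abundant of them and does not show how each marker moved. Of 20 markers of fibroblasts, T cells, B cells, epithelium, neutrophils and dendritic cells none exceeded 0.697 FPKM, and Cd8a and Krt18 were at 0 throughout. Their sum was 2.26 to 2.76 FPKM in nanoparticle libraries and 0.353 to 1.01 FPKM in PBS libraries, and its part in the results was not tested.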

How the data were processed

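One table covered all 6 libraries, with 1 column each, matched to the labels by library name; the column of PBS replicate 1 carries a suffix that the labels do not explain. The deposited values were taken as FPKM scaled by the authors to transcript length and library size. The header names no unit, so FPKM was inferred from values that are not whole and sums that differ. STAR, featureCounts, GRCm38 and mm10 are named without versions in the submitters' processing notes, and the sources used here do not state the normalization. Depth is unknown, since low values fell on whole steps (within 0.05) in at most 26.8% to 34.3% of cases per library, so fragments were not recovered and no count test was run. The 509 rows without an Ensembl identifier (0.427% to 0.497% of a library's FPKM) were left out.

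On log2(FPKM + 1), limma 3.58.1 (R 4.3.3; variance trend on mean level) tested the 10229 genes whose mean over the libraries reached 1 FPKM. The model held treatment alone, and two-sided p-values were adjusted over all genes tested (Benjamini-Hochberg, threshold 0.05). This scale understates the change of low genes. Replicate numbers are shared between groups. Deviations of same-numbered libraries correlated at 0.130, 0.115 and 0.354, all above 0.1, and those of differently numbered libraries at -0.261 to 0.134, a range that covers the first 2. By the limit of 0.1 the numbers may pair libraries, from the data alone, but these correlations do not settle it. The p-values given are from the model without pairs, and a replicate block was an alternative. The block changed no call for a member, with a limma adjusted p of at most 1.3e-07 (Ifit1bl1). Other alternatives were the added constant, the filter, 3 scalings, no trend and leaving out each library. Ratios between members were tested by exact permutation (scipy 1.17.1). Sequences were RefSeq promoter windows and GENCODE M21 transcripts, aligned with Biopython 1.88.

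Besides the members, genes were named by rule: in each list the 3 with the smallest p and the most significant one against the majority, the 5 nearest protein-coding genes on each side of the cluster, and the 3 closest profiles. A gene that the rule names is not reported here. Irf9, Irf3, Ifnb1, Ifnar1, Ifnar2, Jak1, Tyk2, Cmtr1 and Cmtr2 were added for their roles after values were seen. Socs1, Tlr8, Ifna2 and Ifna4 were also picked outside the rule. Irak4, Dcp2, Ptpn11, Pias1, Mavs and Unc93b1 are named only for calls that changed between settings. The members and lists were chosen with earlier results of these data known.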

Additional observations from a re-analysis of the deposited data

How the results depend on the processing

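The 5 members and the Ifit3 sum kept their direction and call in all 90 refits, 15 for each, with a largest adjusted p of 1.5e-06 (limma). The replicate block left 5 of 5 members called, and the number of genes past the threshold was 8351 with it and 7896 without. Upper quartile scaling moved the median log2 fold change of all genes by -0.11, and split the calls into 3737 higher and 4162 lower, against 4366 and 3530. Median-ratio scaling split them into 3942 and 3947. The members' log2 fold changes under upper quartile scaling were 4.42, 2.78, 5.10, 5.37 and 3.64 for Ifit1, Ifit2, Ifit3, Ifit3b and Ifit1bl1. The number called in each list stayed within 1.5 times, but small counts in one direction moved further. Among locus neighbours 1 was higher under upper quartile and median-ratio scaling and without PBS replicate 3, and 2 were lower with a filter at 5 FPKM. Of the feedback genes 2 were lower under both scalings, the block and without nanoparticle replicate 3, and of the ISGF3 and IRF genes 1 was lower without PBS replicate 1. The replicate block changed calls for Irak4, Dcp2, Ptpn11 and Pias1 alone among listed genes. In comparisons that were not planned and were added after seeing the data, the difference for Ifit3b relative to Ifit3 reversed to -0.37 with a constant of 10. That for Ifit1bl1 relative to Ifit1 reversed to 1.02 with 0.1. With a constant of 1 these differences were 0.26 and -0.82. The ratios of Ifit2 and of the Ifit3 pair to Ifit1 kept the sign of their difference under both constants and without any 1 library. Low PBS values of Ifit3b and Ifit1bl1 and the unknown depth limit the precision of their fold changes.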

Other observations

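ISRE core matches were also counted across the table, as a description. Of the 213 genes called with a log2 fold change of at least 2 that had a RefSeq promoter window under the same symbol, 18.3% held a core match, the 4 IFIT members with one among them. The share was 3.92% of all 8104 tested genes with a window, and 1 of 50 genes with a log2 fold change of -2 or lower. Gene symbols were matched exactly, so tested genes listed under another symbol are not counted.

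Interferon alpha genes on the list stayed at or near 0. Ifna2 was listed at 0 in all 6 libraries, and Ifna4 was at 0.130, 0 and 0 FPKM in nanoparticle libraries and at 0 in PBS libraries. Tlr8 was at or under 0.0381 FPKM in every library, and Socs1, an inhibitor of JAK kinases under the expression filter, averaged 1.17 ± 0.209 FPKM in nanoparticle libraries and 0.118 ± 0.0506 FPKM in PBS libraries (SD, n = 3 each).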
